A study of Mus musculus with 55 samples.

Results

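The 10 genes described here encode serine hydrolases other than the cholinesterases: Pnpla6, Faah, Mgll, Abhd6, Abhd12, Lypla1, Lypla2, Apeh, Nceh1 and Siae. They were taken by gene symbol from a table of 19938 genes with 1 symbol measured on Affymetrix Mouse Gene 1.0 ST arrays, whose probes lie along the whole transcript. Each of the 10 had 1 probe set, and all 10 were among the 14949 genes tested. RNA came from the cerebellum of C57Bl/6 mouse pups at postnatal day (PND) 22. The pups had received chlorpyrifos oxon (CPO) at 0.35 or 0.5 mg/kg/day, or DMSO vehicle, under the skin on every day from PND 4 to PND 21. CPO is the active metabolite of the organophosphate insecticide chlorpyrifos, and the plasma enzyme paraoxonase 1 (PON1) hydrolyses it.

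The 55 arrays covered 4 genotypes. WT mice (Pon1+/+) gave 6 vehicle arrays, 6 at 0.35 mg/kg/day and 3 at 0.5 mg/kg/day. Mice labelled KO (Pon1-/-) gave 4, 5 and 3 arrays in the same order. Mice of the tgHuPON1Q192 line (Q192), which carries a human PON1 gene of the glutamine form, gave 4, 5 and 5, and so did mice of the tgHuPON1R192 line (R192), which carries one of the arginine form. The labels name neither the promoter of the human genes nor the Pon1 background of these lines, and they do not say that each array was a separate animal, so the p-values speak only for the spread among the arrays, which may be technical. The descriptions also carry a number, unexplained there, that arrays can share. The 3 WT and the 3 labelled KO arrays at 0.5 mg/kg/day hold 2 numbers in each group, and 3 of the 6 WT vehicle arrays share 1 number, so arrays counted in n may not be independent. All values are log2 levels, and they are compared between arrays within a gene, never between genes.

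Serine hydrolases share a catalytic serine, and an oxon such as CPO can block them by phosphorylating it, as it does in acetylcholinesterase. Several of them end lipid signals in the brain. Faah hydrolyses the endocannabinoid anandamide, Mgll, Abhd6 and Abhd12 can hydrolyse 2-arachidonoylglycerol, and Pnpla6, the neuropathy target esterase, deacylates phosphatidylcholine and is the target linked to delayed neuropathy after some organophosphates. Lypla1 and Lypla2 remove palmitate from proteins, Apeh removes acetylated residues from the start of peptides, Nceh1 hydrolyses neutral cholesterol esters and ether lipids, and Siae removes acetyl groups from sialic acids. The arrays measured their transcripts, not enzyme activity, in whole tissue, where fewer cells of a type and less RNA per cell cannot be told apart.

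Promoter windows were found in RefSeq (GRCm38.p6) for 7 of the 10 genes, and those of Faah, Lypla2 and Apeh are shown because the differences that passed the test below lie in these genes. Each sequence is the 250 bases before the transcript start, 5′ to 3′ on the strand of the gene, at chr4:116017925-116018174 (Faah), chr4:135972595-135972844 (Lypla2) and chr9:108094481-108094730 (Apeh), all on the minus strand. Capitals mark the GC box GGGCGG on either strand.
Faah: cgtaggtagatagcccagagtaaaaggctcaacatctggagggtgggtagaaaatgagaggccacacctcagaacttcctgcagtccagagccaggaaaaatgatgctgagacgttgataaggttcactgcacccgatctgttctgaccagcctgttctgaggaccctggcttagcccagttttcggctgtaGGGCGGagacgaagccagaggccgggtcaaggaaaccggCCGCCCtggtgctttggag
Lypla2: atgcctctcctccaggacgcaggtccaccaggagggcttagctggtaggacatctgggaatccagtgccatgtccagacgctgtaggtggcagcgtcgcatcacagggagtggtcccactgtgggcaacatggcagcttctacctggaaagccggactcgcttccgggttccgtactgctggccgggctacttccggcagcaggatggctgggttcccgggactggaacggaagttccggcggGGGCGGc
Apeh: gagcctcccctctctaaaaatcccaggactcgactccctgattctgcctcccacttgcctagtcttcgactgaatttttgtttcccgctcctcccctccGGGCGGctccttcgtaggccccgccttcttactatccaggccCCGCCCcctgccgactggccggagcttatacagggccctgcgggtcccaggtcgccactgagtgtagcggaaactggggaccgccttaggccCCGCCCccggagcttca
The GC box stood 2 times in the Faah window, 1 time in that of Lypla2 and 3 times in that of Apeh. It was in at least 1 window of 6 of the 7 genes and in 32.7% of the 32851 single windows of all genes. These units differ, because a gene with several windows counts if any of them holds the motif. Abhd6, Mgll and Pnpla6 each also had a window without the GC box. The counts by gene, here and for the motifs below, are therefore not a like comparison with the shares of windows. G and C made up 55.6% of the Faah window, 64% of that of Lypla2 and 63.6% of that of Apeh, against a median of 52.4% over all windows. The CCAAT box (CCAAT, in 33.8% of all windows) was found in 3 of the 7 genes, which were Abhd6, Nceh1 and Pnpla6. The E-box (CACGTG, 6.02%) was found in 2, Mgll and Nceh1. The TATA box (TATAAA, 12.4%) and the cyclic AMP response element (TGACGTCA, 1.55%) were in none of the windows of the 7 genes. All motifs were searched on both strands. Abhd6, Mgll and Pnpla6 have more than 1 window, and such matches are letters in a sequence, not measured binding.

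**Figure D1:**
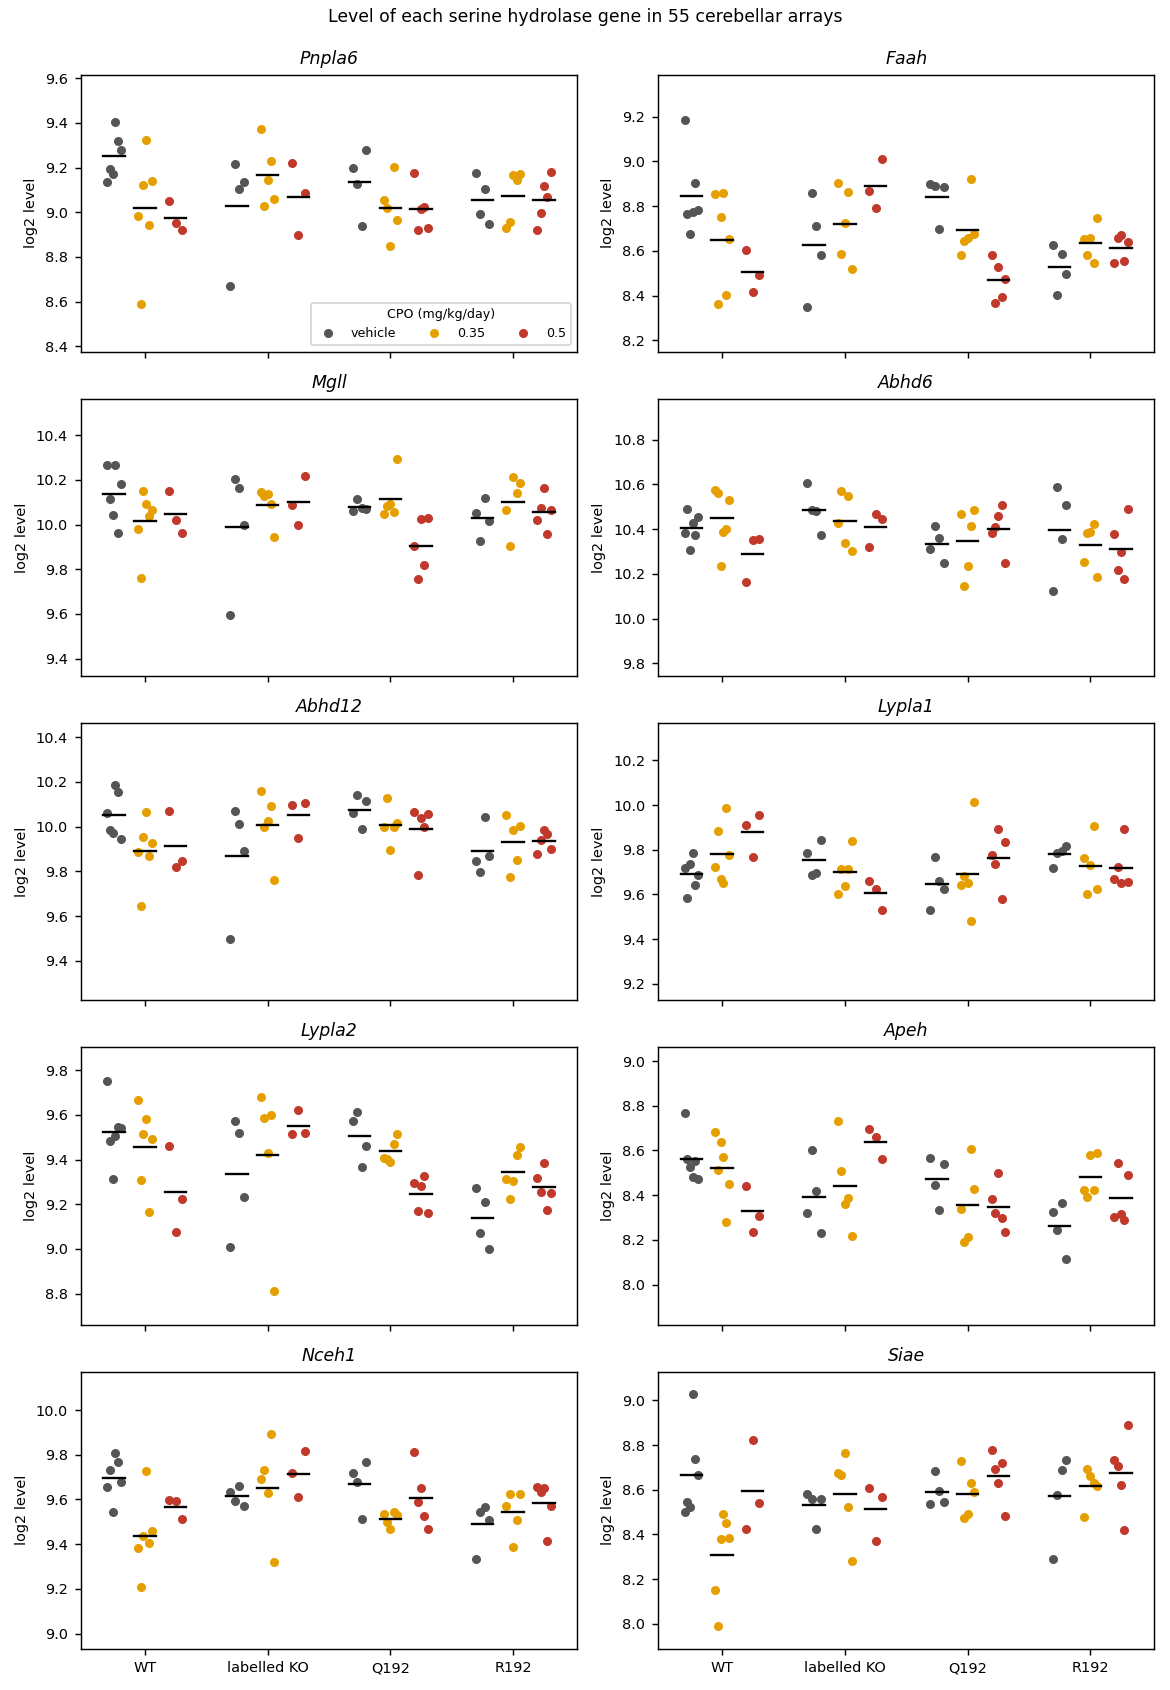
Log2 level of each of the 10 serine hydrolase genes in the 55 arrays, by genotype on the horizontal axis and by treatment in colour; each point is 1 array and each bar a group mean. In Faah, the WT and Q192 arrays at 0.5 mg/kg/day lie below the vehicle arrays of the same genotype, whereas the arrays labelled KO at that dose lie at the high end of the gene's range.

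Some arrays stood apart or went against their labels. Pon1 read 5.19 ± 0.24 (SD, n = 15) in WT arrays and 10.08 ± 0.19 (SD, n = 12) in arrays labelled KO, much the same as in Q192 arrays (10.10 ± 0.14, n = 14) and R192 arrays (10.13 ± 0.11, n = 14). The probe set therefore did not separate the label KO from the transgenic lines, and every result on the KO label below rests on that label alone. Defining cerebellar markers were high in all arrays, with a median level of 12.66 for Gabra6 of granule neurons and 10.17 for Pcp2 of Purkinje cells. Xist was high in 3 arrays (KO vehicle replicate 4 and WT 0.35 replicates 1 and 2) and low in the other 52. The mean log2 level of 13 oligodendrocyte markers ranged from 9.70 in WT 0.35 replicate 2 to 11.47 in WT vehicle replicate 4. KO vehicle replicate 1 had the lowest score on the first principal axis of all genes (-28.9), and the lowest levels of Faah, Mgll and Abhd12 among the 55 arrays. KO 0.35 replicate 5, which shares the number in its description with R192 arrays at the same dose, had the lowest level of Lypla2 (8.81).

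No serine hydrolase gene changed with CPO by the test. In each of 8 comparisons of a dose with vehicle within a genotype, and in 2 on the mean of the 4 genotypes, 0 of the 10 passed at an adjusted p under 0.05 (limma, Benjamini-Hochberg over 14949 genes). Of all genes, 1.04% passed at 0.5 mg/kg/day in WT, 0.00669% at 0.35 mg/kg/day in WT, and 0% in the other 8 comparisons. At an unadjusted p under 0.05 the count was 4 of 10 at 0.35 mg/kg/day in WT, where 20.3% of all genes stood, and 5 of 10 at 0.5 mg/kg/day in WT, where 21.9% stood. In arrays labelled KO the counts were 0 (6.44% of all genes) at the lower and 2 (12.8%) at the higher dose. In Q192 they were 0 (2.05%) and 2 (13.2%), and in R192 they were 2 (3.58%) and 0 (1.02%). The median difference of the 10 genes was -0.14 at the lower and -0.13 at the higher dose in WT, and 0.07 and 0.12 in arrays labelled KO. It was -0.07 and -0.10 in Q192, and 0.07 and 0.07 in R192, so the sign was negative in WT and Q192 and positive in the others. Over all genes tested the medians lay between -0.01 and 0.03. The normalisation brings all arrays to a common distribution, so medians near 0 over all genes were likely beforehand. Several of the 10 genes also varied together from array to array, so their signs are not separate observations. The 2 doses in a genotype share their vehicle arrays.

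**Figure D2:**
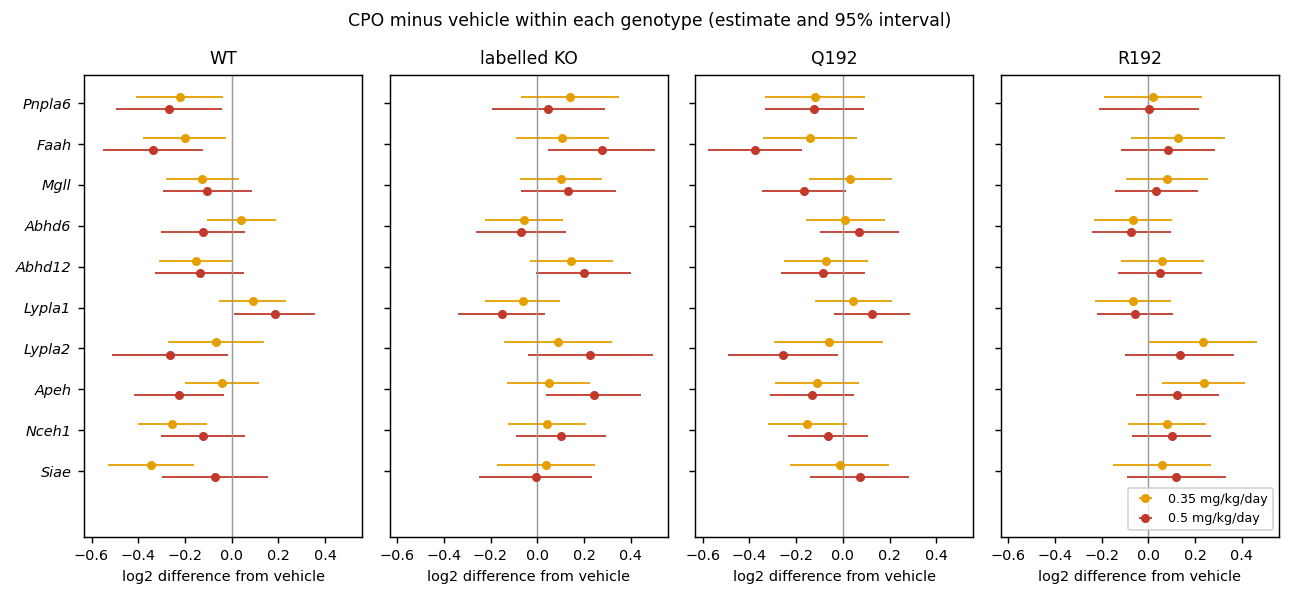
Difference of CPO from vehicle (log2, horizontal axis) for each serine hydrolase gene within each genotype; points are fitted differences at 0.35 mg/kg/day (orange) and 0.5 mg/kg/day (red), and bars are 95% confidence intervals. Faah at 0.5 mg/kg/day lies at -0.34 in WT and -0.38 in Q192, and at 0.28 in arrays labelled KO and 0.08 in R192.

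Faah, the hydrolase of anandamide, gave the farthest differences from vehicle among the endocannabinoid hydrolases. In WT, vehicle arrays read 8.67 at the lowest, 8.78 at the median and 9.19 at the highest (mean 8.85 ± 0.18, SD, n = 6), and the 3 arrays at 0.5 mg/kg/day read 8.61, 8.42 and 8.49 (8.50 ± 0.10). The groups did not overlap, as was so for 13.2% of all genes and 3 of the 10 in that comparison. The fitted difference was -0.34 (SE 0.11, 95% interval -0.55 to -0.12), or 0.792 of the vehicle level, and missed the threshold (limma, adjusted p = 0.0756). Of 55 fits that each left out 1 array, it passed in 1, without WT vehicle replicate 3 (-0.38, adjusted p = 0.0480 with limma). It passed in 5 of 19 other settings of the fit, among them array quality weights (-0.28, adjusted p = 0.0105 with limma). The share of all genes that passed in those fits is not given here. At 0.35 mg/kg/day the WT arrays ran from 8.36 through a median of 8.70 to 8.86, and they overlapped both other WT groups. Their difference from vehicle was -0.20 (95% interval -0.38 to -0.02, adjusted p = 0.191 with limma).

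Q192 mice gave a Faah difference of like size. Their vehicle arrays read 8.90, 8.89, 8.70 and 8.88, those at 0.35 mg/kg/day 8.58, 8.64, 8.66, 8.92 and 8.67, and those at 0.5 mg/kg/day 8.58, 8.37, 8.53, 8.39 and 8.48. All 5 arrays at the higher dose lay below all vehicle arrays, a separation that 9.35% of all genes and 3 of the 10 showed. The difference at that dose was -0.38 (SE 0.10, 95% interval -0.58 to -0.17, limma adjusted p = 0.332). The fit gave it an unadjusted p of 0.000498.

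Arrays labelled KO ran the other way in Faah. Vehicle arrays read 8.35, 8.86, 8.71 and 8.58, arrays at 0.35 mg/kg/day 8.90, 8.59, 8.73, 8.86 and 8.52, and arrays at 0.5 mg/kg/day 8.87, 8.79 and 9.01. The higher dose lay 0.28 above vehicle (SE 0.11, 95% interval 0.05 to 0.50, limma adjusted p = 0.387) and the groups overlapped. Without KO vehicle replicate 1, the array that stood apart, the difference was 0.17. In R192, vehicle arrays read 8.63, 8.40, 8.58 and 8.49, arrays at 0.35 mg/kg/day 8.65, 8.58, 8.66, 8.55 and 8.75, and arrays at 0.5 mg/kg/day 8.55, 8.66, 8.67, 8.55 and 8.64. These R192 groups overlapped throughout, and the difference at the higher dose was 0.08 (95% interval -0.12 to 0.29). Ordered by group mean, Faah was highest in labelled KO at 0.5 mg/kg/day (8.89), WT vehicle (8.85) and Q192 vehicle (8.84), and lowest in R192 vehicle (8.53), WT at 0.5 mg/kg/day (8.50) and Q192 at 0.5 mg/kg/day (8.47). No neighbours in the order of the 12 means were farther apart than the larger of their SDs.

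Mgll, Abhd6 and Abhd12, the other hydrolases of endocannabinoids among the 10, had no difference from vehicle that passed, and none with an unadjusted p under 0.05 in the 8 comparisons. Mgll, the main hydrolase of 2-arachidonoylglycerol in brain, ranged from 9.59 to 10.29 over all arrays. Its lowest difference was -0.17 at 0.5 mg/kg/day in Q192 (95% interval -0.34 to 0.01), where the arrays read 9.90, 9.76, 10.02, 9.82 and 10.03 against vehicle at 10.06, 10.11, 10.07 and 10.07. Those 2 Mgll groups did not overlap, although the interval spans 0. Abhd6 was the steadiest across doses, with differences from -0.12 to 0.07 and intervals that all lay within -0.30 to 0.24. Abhd12 differences ran from -0.15 at 0.35 mg/kg/day in WT to 0.20 at 0.5 mg/kg/day in arrays labelled KO. In that last comparison the Abhd12 vehicle arrays read 9.50, 10.07, 10.01 and 9.89 and the treated arrays 10.10, 9.95 and 10.11, so the low array was KO vehicle replicate 1, which stood apart above. Without it the Abhd12 difference was 0.06.

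Pnpla6, the neuropathy target esterase, was lower at both doses in WT without passing. WT vehicle arrays read 9.13 at the lowest, 9.24 at the median and 9.40 at the highest, arrays at 0.35 mg/kg/day ran from 8.59 through 9.05 to 9.32, and those at 0.5 mg/kg/day read 9.05, 8.95 and 8.92. The differences were -0.22 (95% interval -0.41 to -0.04, limma adjusted p = 0.170) and -0.27 (95% interval -0.49 to -0.04, adjusted p = 0.156). The groups at the higher dose did not overlap, while those at the lower dose did. Single arrays moved the Pnpla6 difference at 0.35 mg/kg/day. It was -0.14 without WT 0.35 replicate 2 (adjusted p = 0.610, limma), and -0.28 without WT 0.35 replicate 4, where it passed (adjusted p = 0.0466, limma) beside 8.88% of all genes. In the other genotypes Pnpla6 differences lay between -0.12 in Q192 and 0.14 in arrays labelled KO, all with intervals that included 0.

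The protein thioesterases Lypla1 and Lypla2 differed from vehicle in opposite directions in WT, again without passing. Lypla1 at 0.5 mg/kg/day read 9.91, 9.77 and 9.95 against vehicle arrays from 9.58 through 9.70 to 9.78, and the difference was 0.18 (95% interval 0.01 to 0.36, limma adjusted p = 0.200). Lypla2 at the same dose read 9.46, 9.08 and 9.22 against vehicle arrays from 9.31 through 9.52 to 9.75, and the difference was -0.26 (95% interval -0.51 to -0.01, adjusted p = 0.201). Both comparisons overlapped. In Q192 at 0.5 mg/kg/day Lypla2 read 9.29, 9.17, 9.28, 9.33 and 9.16, all below the vehicle arrays at 9.57, 9.61, 9.37 and 9.46. That difference was -0.26 (95% interval -0.49 to -0.02, limma adjusted p = 0.356). Lypla2 lay the other way in R192 at 0.35 mg/kg/day (0.23, 95% interval 0.00 to 0.47, adjusted p = 0.921 with limma) and in arrays labelled KO at 0.5 mg/kg/day (0.23, 95% interval -0.04 to 0.49, adjusted p = 0.406 with limma). The latter was 0.10 without KO vehicle replicate 1.

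Apeh, the acylpeptide hydrolase, was lower at 0.5 mg/kg/day in WT and higher at that dose in arrays labelled KO, neither past the threshold. WT vehicle arrays read 8.47 at the lowest, 8.54 at the median and 8.77 at the highest, arrays at 0.35 mg/kg/day 8.28, 8.54 and 8.68 in the same terms, and the arrays at 0.5 mg/kg/day 8.44, 8.24 and 8.31. The WT groups at the higher dose did not overlap, and the difference was -0.22 (SE 0.10, limma adjusted p = 0.159). Among the arrays labelled KO, vehicle read 8.32, 8.60, 8.42 and 8.23, the lower dose 8.73, 8.51, 8.36, 8.39 and 8.22, and the higher dose 8.70, 8.66 and 8.56. The difference at the higher dose was 0.24 (SE 0.10, adjusted p = 0.387 with limma), and the groups overlapped. In R192, vehicle read 8.32, 8.24, 8.36 and 8.11 and the lower dose 8.42, 8.39, 8.58, 8.42 and 8.59, which left no overlap, as in 2.53% of all genes. This R192 difference was 0.24 (SE 0.09, adjusted p = 0.921 with limma). The 5 R192 arrays at 0.5 mg/kg/day read 8.30, 8.55, 8.31, 8.29 and 8.49, and 3 of them fell back within the vehicle range.

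Nceh1 and Siae, which act on neutral cholesterol esters and on acetylated sialic acids, were lower at 0.35 mg/kg/day in WT than in vehicle arrays and did not pass. Siae read 8.50 at the lowest, 8.61 at the median and 9.03 at the highest in vehicle arrays, and 7.99, 8.38 and 8.49 at that dose. The groups did not overlap, as was so for 0.368% of all genes, and the difference was -0.35 (SE 0.09, 95% interval -0.53 to -0.16, limma adjusted p = 0.120). At 0.5 mg/kg/day the 3 Siae values, 8.42, 8.82 and 8.54, lay back within or next to the vehicle range. Nceh1 ran from 9.54 through 9.71 to 9.81 in WT vehicle arrays and from 9.21 through 9.42 to 9.73 at 0.35 mg/kg/day, an overlapping difference of -0.25 (SE 0.07, limma adjusted p = 0.120). The lowest value of both genes was in WT 0.35 replicate 2. That array was also lowest in the oligodendrocyte markers and in the brainstem and midbrain neuron markers.

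Markers of glia and of other cell types moved with the Siae and Nceh1 levels. Oligodendrocyte markers averaged 10.93 ± 0.34 (SD, n = 6) in WT vehicle arrays and 10.45 ± 0.48 (SD, n = 6) at 0.35 mg/kg/day, ranging from 10.46 to 11.47 and from 9.70 to 10.88. Over the 55 arrays, which share groups and processing, Siae had a Pearson r of 0.74 with the oligodendrocyte precursor markers. It was 0.72 with brainstem and midbrain neuron markers, 0.71 with endothelial markers, 0.68 with microglial markers and 0.65 with the oligodendrocyte markers. With the granule neuron markers it was -0.64, and with the Purkinje cell markers -0.63. Without the 2 arrays farthest from the median of each marker list, these Siae values lay between 0.54 and 0.59 in size. Nceh1 had an r of 0.71 with markers of cerebellar interneurons, 0.60 with endothelial and with oligodendrocyte precursor markers, and 0.55 with the oligodendrocyte markers. Without the 2 farthest arrays of each list, its values lay between 0.47 and 0.66. With the oligodendrocyte markers as a covariate the WT differences were -0.19 for Siae and -0.13 for Nceh1. Without the 3 arrays of high Xist, 2 of which lie in the WT group at 0.35 mg/kg/day, they were -0.23 and -0.18 (limma adjusted p = 0.906 for each). Within the first array date the 2 differences were -0.19 and -0.13. Within the second they were -0.55 and -0.40, where both passed (adjusted p = 0.0176 and 0.0156 with limma). The share of all genes that passed on that date is not given here, and its WT vehicle arrays all share the same description number. Without WT 0.35 replicate 4, Siae passed at -0.39 (adjusted p = 0.0168) and Nceh1 at -0.31 (adjusted p = 0.0150), and without WT vehicle replicate 1 at -0.37 (0.0357) and -0.26 (0.0421), all with limma. In those 2 fits 8.88% and 5.66% of all genes passed.

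Genotype made no difference that passed when the 3 treatments were averaged. In 6 pairs of genotypes, 0 of the 10 genes passed (limma), while 0.375% of all genes passed between KO and WT, 0.455% between Q192 and WT, 0.87% between R192 and WT, 0.401% between Q192 and KO, 5.61% between R192 and KO, and 0.0736% between R192 and Q192. At an unadjusted p under 0.05 stood Faah (-0.15), Lypla2 (-0.16) and Nceh1 (-0.12) for R192 minus KO, and Lypla2 (-0.15) for R192 minus WT, beside 22.4% and 12.9% of all genes. The 60 differences lay between -0.16 and 0.11 with intervals within -0.30 to 0.23. Without KO 0.35 replicate 5, Faah, Lypla2 and Nceh1 passed for R192 minus KO beside 15.5% of all genes, and without KO vehicle replicate 1 Faah and Lypla2 did beside 10.9%.

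In vehicle arrays alone, Faah, Lypla2 and Apeh were lower in R192 than in WT. These 3 of the 10 genes passed, all lower, beside 5.32% of all genes in either direction and 4.67% as lower. None of the 10 passed in the other 5 pairs of vehicle groups, in which 0.147% (KO and WT), 0.14% (Q192 and WT), 0.1% (Q192 and KO), 0.0268% (R192 and KO) and 0.0268% (R192 and Q192) of all genes did. Lypla2 read 9.27, 9.07, 9.21 and 9.0 in R192 vehicle arrays, below the lowest WT vehicle array at 9.31. Its difference was -0.38 (SE 0.11, limma adjusted p = 0.0386), or 0.768 of the WT level. Apeh differed by -0.30 (SE 0.09, adjusted p = 0.0325 with limma), with the R192 arrays at 8.11 to 8.36 and the WT arrays at 8.47 to 8.77. Faah differed by -0.32 (SE 0.10, adjusted p = 0.0417 with limma), with the R192 arrays at 8.40 to 8.63 and the WT arrays at 8.67 to 9.19. In all 3 genes the groups did not overlap, as in 9.24% of all genes. Nceh1 followed at -0.21 (95% interval -0.37 to -0.04, adjusted p = 0.116 with limma), with overlap.

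R192 vehicle arrays also lay below Q192 vehicle arrays in Faah (-0.31) and Lypla2 (-0.36), without overlap, as in 13.7% of all genes, but neither passed (limma adjusted p = 0.180 and 0.183). Against vehicle arrays labelled KO, the R192 arrays lay apart only in Nceh1 (-0.13, adjusted p = 0.797 with limma), beside 4.15% of all genes without overlap. The calls against WT came from few arrays and lay near the threshold. All 3 were lost without R192 vehicle replicate 1, 2 or 4, or without WT vehicle replicate 1, 2 or 5. Faah and Lypla2 were also lost without WT vehicle replicate 6. The adjusted p from limma in those fits was between 0.0512 and 0.243. A lost call did not always mean a smaller difference, as in Lypla2 without R192 vehicle replicate 1 (-0.43 against -0.38). The adjusted p also depends on all other genes, and their share that passed in those fits is not given here. The differences kept their sign in each of those fits, from -0.25 to -0.35 for Faah, -0.33 to -0.43 for Lypla2 and -0.26 to -0.31 for Apeh. Within each array date alone they were -0.36 and -0.28 for Faah, -0.34 and -0.43 for Lypla2, and -0.34 and -0.26 for Apeh. None passed there (adjusted p from 0.243 to 0.375, limma). On the second date the WT vehicle arrays all share the same description number, and the R192 vehicle arrays all share another. Genotype and number cannot be told apart on that date.

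The effect of 0.5 mg/kg/day differed between mice labelled KO and WT in Faah and Apeh. This question, whether the genotype alters the response, was tested as the difference of the 2 CPO effects. In Faah the effect was 0.28 in arrays labelled KO and -0.34 in WT, a difference of 0.61 (SE 0.16, 95% interval 0.30 to 0.93, limma adjusted p = 0.0370). In Apeh it was 0.24 and -0.22, a difference of 0.47 (SE 0.14, 95% interval 0.19 to 0.75, adjusted p = 0.0397 with limma). These were 2 of the 10 genes, both higher in labelled KO, beside 9.2% of all genes that passed and 5.63% that passed as higher. Lypla2 gave 0.49 (adjusted p = 0.0673), Lypla1 -0.34 (0.0709) and Abhd12 0.34 (0.0961), all from limma and short of the threshold. Lypla1, at 9.66, 9.63 and 9.53 in labelled KO at that dose and 9.79, 9.69, 9.70 and 9.85 in its vehicle arrays (no overlap, as in 8.93% of all genes), was the only one of the 10 with a negative difference.

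**Figure D3:**
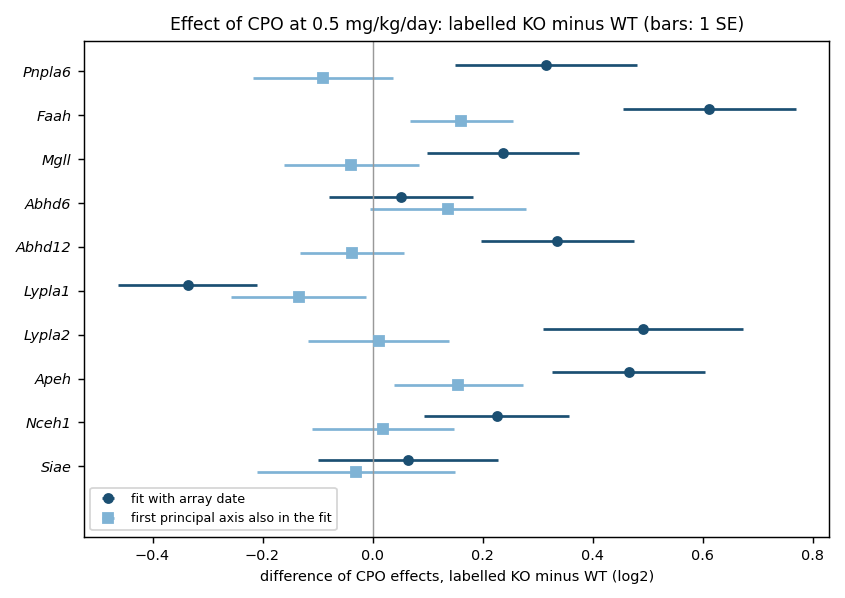
Difference between mice labelled KO and WT in the effect of 0.5 mg/kg/day CPO (log2, horizontal axis) for each serine hydrolase gene; bars are 1 SE, circles come from the fit with array date and squares from the fit that also holds the first principal axis of all genes. Faah lies at 0.61 in the first fit and 0.16 in the second, and Apeh at 0.47 and 0.16.

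Both calls depended on single arrays and settings. They were lost without KO 0.5 replicate 1 or 3, KO vehicle replicate 1 or 4, WT 0.5 replicate 2 or 3, or WT vehicle replicate 1 or 5. The differences were then from 0.50 to 0.62 in Faah and 0.42 to 0.49 in Apeh, with adjusted p up to 0.174 (limma). A lost call did not always mean a smaller difference, as in Faah without KO 0.5 replicate 1 (0.62 against 0.61). The share of all genes that passed in these fits is not given here. Without KO vehicle replicate 1 the differences were 0.50 and 0.43 (adjusted p = 0.174 for each, limma). Without the 3 arrays of high Xist they were 0.61 and 0.42 (adjusted p = 0.0582 and 0.0694, limma). Within the first array date, which holds 1 WT array at 0.5 mg/kg/day, Faah gave 0.50 and Apeh 0.39. Within the second, which holds 1 array labelled KO at that dose, they gave 0.73 and 0.47. With 1 array in a group, these values have no spread of their own there and are given as sizes only. Without KO 0.35 replicate 5 the count of differences of CPO effects that passed went from 2 to 7, without KO vehicle replicate 2 to 5 and without WT 0.35 replicate 4 to 5, and Faah and Apeh at the higher dose were among them each time. More of all genes passed in those fits too. Shares at the higher dose were 13.9%, 19.9% and 9.45%, and at the lower dose 16.6%, 9.41% and 10.2%, in the same order.

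The other differences of CPO effects gave no call in the fit to all arrays. At 0.35 mg/kg/day, labelled KO minus WT, 0 of the 10 passed beside 0.00669% of all genes, and the largest was Siae at 0.38 (95% interval 0.10 to 0.66, limma adjusted p = 0.0979). Siae passed there without KO 0.35 replicate 5 (0.46, adjusted p = 0.0250), without WT 0.35 replicate 4 (0.42, adjusted p = 0.0446) and on the second array date alone (0.71, adjusted p = 0.0422), all with limma. Nceh1 passed in the same 3 settings, at 0.39, 0.35 and 0.54. For the second date the share of all genes that passed is not given here, and its WT vehicle arrays all share the same description number. Between R192 and Q192, 0 of the 10 and 0% of all genes passed at either dose. Faah at 0.5 mg/kg/day differed there by 0.46 (95% interval 0.17 to 0.75, adjusted p = 0.672), and Apeh at 0.35 mg/kg/day by 0.35 (95% interval 0.10 to 0.60, adjusted p = 0.766), both from limma.

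Faah, Lypla2 and Apeh varied together from array to array. Across the 55 arrays, which share groups, dates and normalisation, Pearson r was 0.80 for Faah with Lypla2, 0.73 for Lypla2 with Apeh and 0.72 for Faah with Apeh. Pnpla6 and Abhd12 gave 0.69. Lypla1 ran against them, with r = -0.54 with Faah and -0.42 with its paralog Lypla2, and Abhd6 stood alone, with no r beyond -0.26 to 0.15. Within-group SDs were ordinary for the array. They ran from 0.111 in Lypla1 to 0.171 in Lypla2, against a median of 0.130 over all genes tested.

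Faah, Lypla2 and, less closely, Apeh varied with the first principal axis of all genes tested, which held 27.5% of the variance. Over 55 arrays r with it was 0.89 for Faah, 0.85 for Lypla2, 0.82 for Abhd12, 0.71 for Apeh and Pnpla6, and -0.59 for Lypla1. Of all genes, 2.50% had a larger r in size than Faah, 5.46% than Lypla2, 8.56% than Abhd12, 18.9% than Pnpla6 and 19.2% than Apeh, and the axis was itself computed with these genes in it. The sign of the axis was set so that its score rises with the mean of Faah and Lypla2. The group means of the axis followed the comparisons above. They were 9.86 in WT vehicle and -8.21 in WT at 0.5 mg/kg/day, -5.77 and 10.7 in the same groups labelled KO, 8.39 and -5.41 in Q192, and -9.01 in R192 vehicle. Siae followed the second axis (25.8% of the variance) instead, with r = -0.76 (Spearman -0.61).

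**Figure D4:**
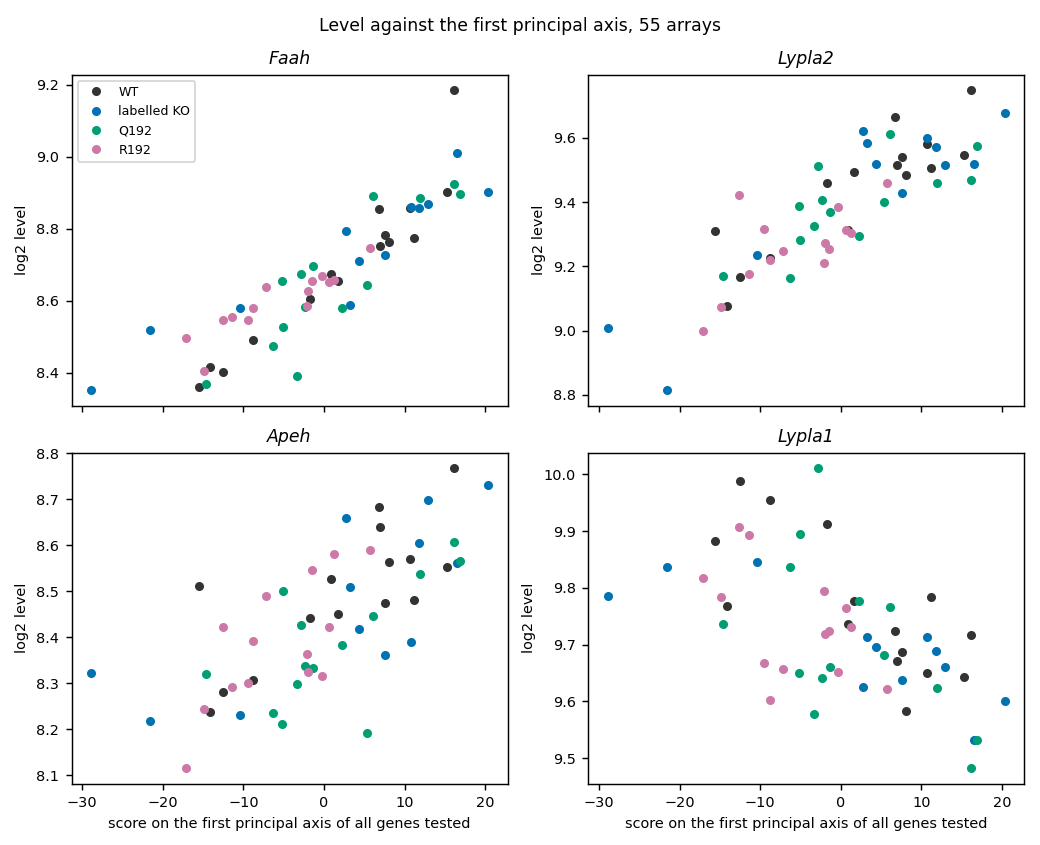
Log2 levels of Faah, Lypla2, Apeh and Lypla1 (vertical axes) against the score of each array on the first principal axis of all genes tested (horizontal axes, no unit), 55 points a panel, coloured by genotype. Faah, Lypla2 and Apeh are higher in arrays of high score (r = 0.89, 0.85 and 0.71) and Lypla1 lower (r = -0.59). The sign of the axis was set so that the score rises with the mean of Faah and Lypla2.

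With that axis as a covariate, chosen after the data were seen, neither set of calls held. The axis followed the same group differences and had r = 0.89 with Faah, so a loss of the Faah calls was likely beforehand. The difference of CPO effects between labelled KO and WT at 0.5 mg/kg/day became 0.16 (SE 0.09) for Faah and 0.16 (SE 0.12) for Apeh, both at an adjusted p of 0.980 with limma. R192 minus WT in vehicle arrays became -0.08 for Faah, -0.13 for Lypla2 and -0.14 for Apeh. The mean level of 49 cytosolic ribosomal protein genes also moved with these genes, with r = -0.70 for Faah, -0.64 for Apeh and -0.63 for Lypla2. It averaged 10.76 ± 0.16 (SD, n = 6) in WT vehicle arrays, 11.005 ± 0.04 (n = 3) at 0.5 mg/kg/day in WT, 10.88 ± 0.07 (n = 4) and 10.79 ± 0.01 (n = 3) in the same groups labelled KO, and 11.02 ± 0.06 (n = 4) in R192 vehicle arrays. With it as a covariate the difference of CPO effects was 0.29 for Faah and 0.25 for Apeh (adjusted p = 0.690 for each, limma), and R192 minus WT was -0.07, -0.16 and -0.13 for Faah, Lypla2 and Apeh. Markers of cerebellar interneurons (10 genes of 10 listed) moved with Faah (r = 0.73), Lypla2 (0.68) and Apeh (0.53) as well. Their mean ran from 9.09 to 9.35 in WT vehicle arrays and from 8.90 to 9.09 in R192 vehicle arrays, from 8.95 to 9.10 in WT at 0.5 mg/kg/day, and from 8.96 to 9.23 and 9.13 to 9.39 in the vehicle and 0.5 mg/kg/day arrays labelled KO. The part of the interneuron markers in the results was not tested. Other marker lists moved with these genes too. Granule neuron markers gave r = 0.57 with Apeh, 0.50 with Lypla2 and 0.40 with Faah. Astrocyte and Bergmann glia markers gave 0.65 with Lypla2, 0.54 with Faah and 0.39 with Apeh. With granule neuron markers as a covariate, neither Faah nor Apeh passed in the difference of CPO effects.

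Among tested genes, those closest to each serine hydrolase in pattern over the 55 arrays were named by the highest Pearson r. Faah lay nearest to Dnmt3a (0.93) and Bag6 (0.92), and Lypla2 to Poldip3 (0.93) and Atf6b (0.93). Apeh lay nearest to Snd1 (0.87) and Sart3 (0.87), Abhd12 to Aplp1 (0.93) and Mid1ip1 (0.91), and Pnpla6 to Ptprn (0.87) and Fbxw5 (0.87). Nceh1 lay nearest to Ttll1 (0.84) and Rtn3 (0.83), Mgll to Pomgnt1 (0.81) and G6pc3 (0.80), and Lypla1 to Rab28 (0.79) and Tfam (0.79). Siae lay nearest to As3mt (0.83) and to Pdgfra (0.83), a marker of oligodendrocyte precursors, and Abhd6 was the least matched, with Mmachc at 0.70 and Rnf4 at 0.69.

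Genes that work beside the 10 were described from lists of their pathways. Of 15 tested genes of the endocannabinoid system, 0 passed in the 10 dose comparisons. In R192 minus WT vehicle arrays, 2 were lower, the diacylglycerol lipases Dagla (-0.72, limma adjusted p = 0.0230) and Daglb (-0.31, adjusted p = 0.0399), which make 2-arachidonoylglycerol, and 1 was higher, the fatty acid carrier Fabp5 (0.45, adjusted p = 0.0330). Of all genes, 5.32% passed there. The median of the 15 was -0.08 there, against -0.01 over all genes. Dagla and Daglb were also the 2 of the 15 that passed in the difference of CPO effects at 0.5 mg/kg/day between labelled KO and WT, at 1.12 and 0.59 (adjusted p = 0.0371 and 0.0370 with limma), beside 9.2% of all genes, where the list's median of 0.02 lay below that of all genes (0.05). For R192 minus KO on the mean of the treatments, Plcb1 was lower (-0.17) and Fabp5 higher (0.32).

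Of 64 other metabolic serine hydrolases tested, 1 passed in the dose comparisons, the dipeptidyl peptidase Dpp9 at 0.5 mg/kg/day in WT (-0.47, limma adjusted p = 0.0486). In R192 minus WT vehicle arrays 8 of the 64 passed, all lower, beside 4.67% of all genes that passed as lower, led by Fasn, the fatty acid synthase (-0.76), and Dagla. In the difference of CPO effects at 0.5 mg/kg/day 6 of the 64 passed, near the share of all genes (9.2%). They were 5 higher and 1 lower in labelled KO than in WT, with Fasn (1.12) and Dagla at one end and the esterase Esd (-0.58) at the other. For R192 minus KO on the mean of the treatments 3 of the 64 passed as higher, Pla2g4a (0.37), Esd (0.20) and Pnpla8 (0.19), beside 5.61% of all genes (2.66% as higher). Ache, the main target of CPO, and Bche passed in none of the 26 comparisons.

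The counts in the remaining lists are to be read against the same shares of all genes, 1.04% at 0.5 mg/kg/day in WT, 5.32% for R192 minus WT in vehicle arrays, 9.2% for the difference of CPO effects and 5.61% for R192 minus KO. Among 30 genes of the protein palmitoylation cycle, in which Lypla1 and Lypla2 take palmitate off, the palmitoyltransferase Zdhhc14 fell at 0.5 mg/kg/day in WT (-0.51, limma adjusted p = 0.0470). It was also lower in R192 than in WT vehicle arrays (-0.42), together with Zdhhc9 (-0.56), and higher in the difference of CPO effects (0.79), together with Zdhhc9 (0.78) and Zdhhc5 (0.34). For R192 minus KO on the mean of the treatments Zdhhc14 (-0.25) and Zdhhc5 (-0.14) were lower and Zdhhc20 (0.25) higher. Of 13 genes around cholesteryl esters and ether lipids, Abca1 (-0.31) and Abcg1 (-0.51), which export sterols, were lower in R192 than in WT vehicle arrays, and Abcg1 (0.87), the sterol receptor Nr1h3 (0.39) and the reductase Far1 (-0.46) passed in the difference of CPO effects. Of 21 genes of phosphatidylcholine turnover, Slc44a2 (-0.33) passed in the first of these comparisons, Chpt1 (-0.50) in the second, and Pla2g4a in R192 minus KO. Of 24 genes of sialic acid metabolism, the sialidase Neu1 (0.51) passed in the difference of CPO effects and St8sia4 (0.35) in R192 minus KO. The comparisons in R192 and in labelled KO against WT share the WT vehicle arrays.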

How the data were processed

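The arrays measured total RNA of bisected cerebella. The deposited values are on a log2 scale, as read from their range of 1.15 to 14.80, and the authors made them with Affymetrix Expression Console 1.1 and RMA, per the submitters' processing notes; the log base and genome build are not given in the sources used here. RMA brings all arrays to a common distribution, so a shift shared by most genes would not show. The table held 35557 probe sets, of which 21789 had 1 gene symbol, 1621 several and 12147 none. For a gene with several, the probe set of the highest mean was used. Genes above the 25th percentile of mean level (6.44) were tested, leaving out 4 sex-linked genes. The number of arrays limits the precision.

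All arrays entered 1 fit in limma 3.58.1 (R 4.3.3, figures in Python 3.11.15) with a mean for each of 12 groups, the array date as a covariate (2 dates, from the descriptions) and a correlation of 0.131 between arrays of 1 description number. The variance was moderated with a trend on level. P-values were adjusted within each of 26 comparisons, with a threshold of 0.05. The 6 pairs of genotypes in vehicle arrays are an alternative to the mean of 3 treatments. The 10 genes, the lists and the comparisons were chosen with earlier results of these data known. All 10 genes were named in any case, and from each list the genes that passed (beyond 5, the 2 largest in each direction). Replicate numbers were checked for pairing across groups: same-numbered arrays had a median correlation of residuals of 0.02 (265 pairs) and others of 0.00 (1116 pairs), so they share only a number. Of 104 pairs of arrays within groups, 0 were identical. The alternatives were 19 settings and the omission of each of 55 arrays.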

Additional observations from a re-analysis of the deposited data

Results flagged for a closer look

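Chance alone sets about 1 in 20 groups apart, and 8 of 100 checked gene and group combinations held an array far from the rest of its group. For Faah these were Q192 0.35 replicate 4 at 8.92, where the others read 8.58 to 8.67, and Q192 vehicle replicate 3 at 8.70, where they read 8.88 to 8.90. Mgll read 9.94 in KO 0.35 replicate 5 (others 10.09 to 10.14) and 10.29 in Q192 0.35 replicate 5 (others 10.05 to 10.09). Abhd12 read 9.78 in Q192 0.5 replicate 2 (others up to 10.06). Lypla2 read 8.81 in KO 0.35 replicate 5 (others 9.43 to 9.68). Apeh read 8.77 in WT vehicle replicate 1 (others 8.47 to 8.56), an array without which neither set of Apeh calls passed. Siae read 8.42 in KO vehicle replicate 3 (others 8.56 to 8.58).

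The effect of 0.5 mg/kg/day CPO differed between mice labelled KO and WT by the test of the difference itself in Faah (0.61 on the log2 scale) and Apeh (0.47). Of all genes, 9.2% passed in that comparison, and 5.63% passed as higher. Each of the 2 calls held in 47 of the 55 fits that left out 1 array.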

How the results depend on the processing

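Counts of serine hydrolase genes that passed were 0 for CPO against vehicle, 0 for genotype pairs, 2 for differences of CPO effects and 3 for genotype pairs in vehicle arrays (limma). The share of all genes that passed also moves with the setting and is not given beside the counts below. Those counts therefore do not set the serine hydrolase genes apart from other genes. For CPO against vehicle the count was 3 without the number correlation, 5 with array quality weights (Faah in WT and Q192, Lypla1, Lypla2 and Pnpla6 in WT), 5 on the second array date alone, 2 with brainstem markers as a covariate, and 1 each with the second principal axis or without 4 arrays (3 of high Xist and KO 0.35 replicate 5). For genotype pairs it was 8 with array quality weights, 4 without those 4 arrays, 3 in vehicle arrays only, and 1 each with brainstem markers, oligodendrocyte markers or the second axis. For differences of CPO effects it was 4 with brainstem markers and 1 without a level filter. It was 0 when the 3 arrays of high Xist were left out, and with granule neuron markers, Xist, the first axis or ribosomal protein genes as covariates. The first array date holds 1 WT array at 0.5 mg/kg/day, so no count of these differences is given for it. In vehicle arrays it was 7 with array quality weights and 0 on either array date alone, with the first axis or with ribosomal protein genes. Leaving out 1 array at a time gave 0 to 3, 0 to 3, 0 to 7 and 0 to 3. The causes were not tested, beyond fewer arrays or more genes tested where the setting itself means that. The replicate number as a block gave 0, 0, 3 and 3, Lypla2 being added in the difference of CPO effects, and changed no other call. On the second array date alone the differences of CPO effects that passed were Nceh1 and Siae at 0.35 mg/kg/day. At 0.5 mg/kg/day that date holds 1 array labelled KO, so it cannot decide on Faah and Apeh. The axes, the ribosomal covariate and the 4 arrays were chosen after seeing the data. None of the 16 differences of single genes with an unadjusted p under 0.01 changed sign in any setting. They were chosen by that p-value in the same arrays, and most settings share nearly all arrays. A kept sign was thus likely beforehand and is no separate support. Groups of 3 to 6 arrays limit what can be seen, and a missed threshold does not show equal levels.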
